A study of Mus musculus with 6 samples.

Results

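*Npas2*, *Arntl*, *Dbp* and *Per3* are genes of the circadian clock and its output, and their transcript levels were compared in mouse livers after hepatic ischemia-reperfusion (I/R). They were taken by gene symbol, and each had 1 row, so that 4 of the 3201 listed genes are described. In *Fgf18*ΔHSC livers, *Npas2* and *Arntl* were higher than in *Fgf18* f/f livers and *Dbp* and *Per3* were lower. For each of the 4 genes, no liver of 1 genotype reached the level of any liver of the other genotype in the values as deposited, although *Arntl* overlapped once the livers were rescaled to each other. As a fold of mean levels, the largest difference was in *Npas2*, which was 34.8 times higher in *Fgf18*ΔHSC livers, and *Dbp* was 7.31 times lower. Which of these genes differed most depended on the processing.

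The livers came from male mice on a C57BL/6 background, 3 *Fgf18* f/f mice (labelled IR1 to IR3) and 3 *Fgf18*ΔHSC mice (labelled 18KO-1 to 18KO-3). All 6 had undergone partial warm ischemia for 1 h and reperfusion for 6 h, so that no liver without surgery enters the comparison, and both genotypes carry the floxed *Fgf18* alleles. In *Fgf18*ΔHSC mice, Cre recombinase under the GFAP promoter, which is also active in astrocytes, removes *Fgf18* from hepatic stellate cells (HSCs), which store vitamin A and line the sinusoids. The clock genes were read in liver tissue, in which HSCs are a minority. The left and middle lobes were made ischemic, and the paper does not say which lobe was sequenced. The label of the IR livers gives a treatment in the field for the genotype, so the f/f genotype was taken from the methods. Values of *Fgf18* were not analysed here, and the genotype labels were not checked against it. The mice were kept under 12 h of light a day with lights on at 7:00 a.m. and free access to food, and the ages of the mice and the clock time of surgery or of collection are not given in the sources used here for any liver.

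The mammalian clock is a feedback loop of transcription. BMAL1, which is encoded by *Arntl*, pairs with CLOCK or with its paralog NPAS2, and these pairs bind E-box sequences and switch on the *Per* and *Cry* genes, whose proteins then block the pairs. A second arm of the loop acts through ROR and REV-ERB nuclear receptors, which compete for shared elements in genes such as *Arntl* and *Npas2*, RORs activating and REV-ERBs repressing. Output runs partly through the PAR bZIP factors DBP, TEF and HLF, which bind D-box sequences. In the liver, transcripts of the activating limb and those of *Dbp* and the *Per* genes peak at opposite times of day, and the liver clock is also set by feeding, glucocorticoids and temperature.

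Levels are in TPM, in which reads are corrected for the length of the gene and for the depth of the library, so that levels of different genes can be compared. The genotypes were compared with limma on log2(TPM + 0.1) across the 3201 genes, and calls needed both an adjusted p (Benjamini-Hochberg) under 0.05 and a log2 fold change beyond 1 in either direction. Every listed gene had already passed a fold change limit and an unadjusted p in the authors' own comparison of these livers, and genes left out of that selection were not analysed here. The background is correspondingly high. Of all listed genes, 2294 (71.7%) were called, 1333 (41.6%) higher and 961 (30.0%) lower in *Fgf18*ΔHSC livers, and in 3082 (96.3%) the livers of the genotypes did not overlap. A call or a separation of the genotypes in 4 of 4 clock genes therefore adds little by itself. The sizes, intervals and adjusted p-values come from the same livers on which the genes were selected, so they may be overstated. The description rests on the levels and the directions, and sizes are set only beside those of other listed genes.

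*Npas2* (ENSMUSG00000026077, chr1:39193731-39363236 of GRCm38, plus strand), the paralog of *Clock* in the activating limb, had very few reads in *Fgf18* f/f livers. Its levels were 0.0780, 0.0375 and 0.0695 TPM in *Fgf18* f/f livers 1 to 3, on 10, 4 and 6 reads. In *Fgf18*ΔHSC livers 1 to 3 they were 2.75, 1.53 and 2.15 TPM, on 273, 112 and 204 reads. The lowest *Fgf18*ΔHSC liver was 19.6 times above the highest *Fgf18* f/f liver, whereas livers of 1 genotype differed by at most 2.08-fold. Mean levels were 0.0617 ± 0.0214 and 2.14 ± 0.608 TPM (SD, n = 3 livers each), and *Npas2* rose by 3.77 on the log2(TPM + 0.1) scale (standard error [SE] 0.26, 95% confidence interval 3.17 to 4.36, limma adjusted p = 1.83e-05). Among the 2083 listed genes that were higher in *Fgf18*ΔHSC livers, it had the 13th largest log2 fold change. The size depends on the scale, because the *Fgf18* f/f level is under the pseudocount of 0.1. The log2 fold change was 1.55 with a pseudocount of 1, 3.14 with livers rescaled by their median ratio, 4.92 with a pseudocount of 0.01 and 5.05 in limma-voom on recovered reads, and the limma adjusted p ranged from 3.99e-06 to 0.000199 over all alternatives. The processed pseudogenes *Gm20428* and *Gm3617* overlap the gene, *Gm3617* on the same strand, and reads shared with them could have been lost or divided.

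*Arntl* (ENSMUSG00000055116, chr7:113207465-113314126, plus strand), which encodes BMAL1, differed far less than its partner *Npas2*. Levels of *Arntl* were 1.09, 0.811 and 0.982 TPM in *Fgf18* f/f livers 1 to 3 and 2.85, 1.74 and 2.07 TPM in *Fgf18*ΔHSC livers 1 to 3. These rest on 133 to 220 and 200 to 445 reads. *Fgf18*ΔHSC liver 1 stood above the other livers, and the nearest livers of the genotypes were 1.59-fold apart, less than the 1.64-fold spread among *Fgf18*ΔHSC livers. Mean levels were 0.962 ± 0.142 and 2.22 ± 0.571 TPM (SD, n = 3 livers each), a 2.31-fold difference. The log2 fold change was 1.11 (SE 0.22, 95% confidence interval 0.61 to 1.61, limma adjusted p = 0.0017), which is near the middle of the genes listed as higher, at rank 1076 of 2083, and little above the median of 0.88 over all 3201 genes. Its call did not hold without *Fgf18*ΔHSC liver 1 (log2 fold change 0.92, limma adjusted p = 0.00607), and it was lost with livers rescaled by their median ratio over the listed genes, which shifted the fold changes of all genes by a median of -0.77 (log2 fold change 0.26, limma adjusted p = 0.333). In the rescaled livers, *Fgf18* f/f liver 1 (1.57) lay above *Fgf18*ΔHSC livers 2 and 3 (1.36 and 1.39), while the genotypes stayed apart for *Npas2*, *Per3* and *Dbp*. Over all alternatives the adjusted p of *Arntl* ranged from 0.000383 to 0.333. The order of livers was the same for *Npas2* and *Arntl* within *Fgf18*ΔHSC livers, with liver 1 highest and liver 2 lowest in both. *Gm45355* runs antisense to *Arntl*, and whether the counting used strand is not stated.

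The promoter of *Arntl* is where the ROR and REV-ERB arm acts, so the reference sequence around its start was searched for the ROR element, spelled here as an A, any 2 bases and a T followed by AGGTCA or GGGTCA, on both strands. RefSeq windows of 300 bases on GRCm38.p6, 250 before and 50 after a transcription start, held 1 such match for *Arntl*, starting 27 bases after the start at chr7:113207511, and 1.6% of all 32851 windows held at least 1. It is printed here with 10 bases on either side and the element in capitals (chr7:113207528-113207557, plus strand).
*Arntl*: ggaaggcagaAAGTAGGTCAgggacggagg
The single window of *Npas2* held none of the elements searched here, which says only that these letters are not in that window. A match is a description of sequence and not a site shown to be bound.

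*Per3* (ENSMUSG00000028957, chr4:151003652-151044665, minus strand), a *Period* family gene of the repressing limb, moved the other way. Levels of *Per3* were 1.19, 1.23 and 1.73 TPM in *Fgf18* f/f livers 1 to 3, on 306, 263 and 299 reads. They were 0.331, 0.286 and 0.316 TPM in *Fgf18*ΔHSC livers 1 to 3, on 66, 42 and 60 reads. *Fgf18* f/f liver 3 stood above the other livers of its genotype, and the *Fgf18*ΔHSC livers lay within 1.16-fold of each other. Mean levels were 1.38 ± 0.300 and 0.311 ± 0.0229 TPM (SD, n = 3 livers each), a 4.44-fold difference, and the nearest livers were 3.59-fold apart. *Per3* fell by 1.83 on the log2(TPM + 0.1) scale (SE 0.21, 95% confidence interval -2.32 to -1.35, limma adjusted p = 0.000126), at rank 181 of the 1118 genes listed as lower. With a pseudocount of 1, which exceeds the *Fgf18*ΔHSC level, the log2 fold change of -0.85 was under the limit of 1 (limma adjusted p = 0.000323, with a range of 3.96e-06 to 0.000774 over all alternatives). The span of *Camta1* overlaps that of *Per3* on the same strand. Reads in any exon stretch that they share could not be told apart, and whether exons overlap was not examined.

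The *Per3* promoter held 2 D-boxes, more than that of any other clock gene with a window. D-boxes, spelled TTATGTAA or TTACGTAA and searched on both strands, are the sequences that DBP, TEF and HLF bind. The 250 bases before the *Per3* start (RefSeq, GRCm38.p6, chr4:151044666-151044915, minus strand) are shown 5′ to 3′ with both D-boxes in capitals.
*Per3*: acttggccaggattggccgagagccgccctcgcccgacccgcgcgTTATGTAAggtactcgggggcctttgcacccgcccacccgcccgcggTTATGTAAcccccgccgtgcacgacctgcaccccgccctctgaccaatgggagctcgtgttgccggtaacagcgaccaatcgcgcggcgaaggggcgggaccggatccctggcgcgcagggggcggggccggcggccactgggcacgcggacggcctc
The D-boxes start 205 and 158 bases before the start site. Of all 32851 windows, 1.06% held a D-box and 8 (0.0244%) held 2 or more. Among the 23 of 28 clock genes that had a window, *Timeless* was the other gene with a D-box, and its level was not analysed here.

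*Dbp* (ENSMUSG00000059824, chr7:45705088-45710203, plus strand), the PAR bZIP output factor, was the most abundant of the 4 genes in *Fgf18* f/f livers and had the most uniform levels there. *Dbp* stood at 13.1, 13.1 and 12.4 TPM in *Fgf18* f/f livers 1 to 3, on 1049, 875 and 668 reads. In *Fgf18*ΔHSC livers 1 to 3 it stood at 1.63, 1.97 and 1.69 TPM, on 101, 90 and 100 reads. Livers of 1 genotype differed by at most 1.21-fold, whereas the nearest livers of different genotype were 6.30-fold apart. Mean levels were 12.9 ± 0.413 and 1.76 ± 0.182 TPM (SD, n = 3 livers each). *Dbp* fell by 2.80 on the log2(TPM + 0.1) scale (SE 0.13, 95% confidence interval -3.10 to -2.51, limma adjusted p = 7.49e-06), the 37th largest fall among the 1118 genes listed as lower. The opposite strand at this locus carries *Sphk2*, which encodes a sphingosine kinase. The overlap is one of gene spans, and reads in any exon stretch that the pair shares are separated only if the counting used strand. No E-box CACGTG, D-box or ROR element was found in the *Dbp* window, which says only that these letters are not in that window.

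An exact permutation test (two-sided, over the 6 livers) gave p = 0.1 for each of the 4 genes, the smallest value that 3 livers against 3 allow. The study describes its replicates as biologically independent. In bulk RNA, fewer cells of a type and less RNA per cell cannot be told apart.

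**Figure D1:**
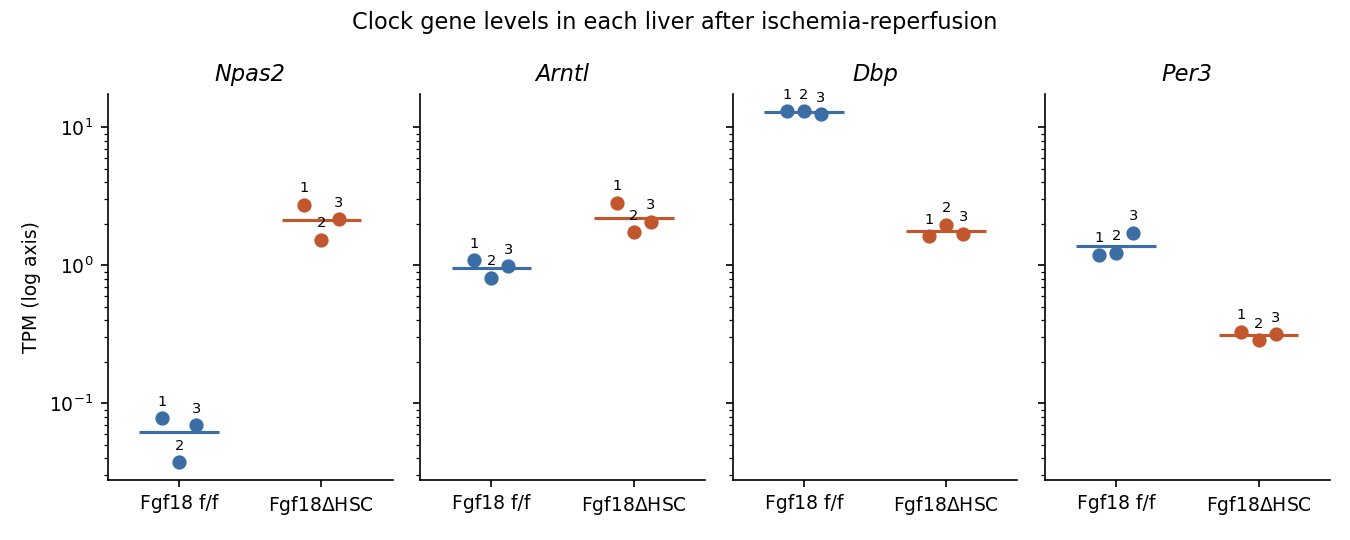
Level of *Npas2*, *Arntl*, *Dbp* and *Per3* in TPM (log axis) in each of 3 *Fgf18* f/f and 3 *Fgf18*ΔHSC livers after I/R, with the liver number above each point and the group mean as a bar. *Npas2* and *Arntl* points are higher in *Fgf18*ΔHSC livers and *Dbp* and *Per3* points lower, and the gap between genotypes is narrowest for *Arntl*, at 1.59-fold between the nearest livers.

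The order of the 4 transcripts differed between the genotypes. In *Fgf18* f/f livers the order was *Dbp*, *Per3*, *Arntl* and *Npas2*, and no neighbours in this order overlapped, from 12.9 TPM for *Dbp* down to 0.0617 TPM for *Npas2*. In *Fgf18*ΔHSC livers *Arntl*, *Npas2* and *Dbp* lay together at means of 2.22, 2.14 and 1.76 TPM, with overlapping ranges, and *Per3* lay below them at 0.311 TPM. The output gene and the activators had thus come to similar levels in *Fgf18*ΔHSC livers.

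A ratio of levels within a liver does not depend on how the livers were scaled to each other. The ratio of *Dbp* to *Arntl* was 11.99, 16.2 and 12.6 in *Fgf18* f/f livers 1 to 3, and 0.570, 1.13 and 0.816 in *Fgf18*ΔHSC livers 1 to 3. *Dbp* thus exceeded *Arntl* in every *Fgf18* f/f liver and in 1 of 3 *Fgf18*ΔHSC livers. The ratio of *Per3* to *Npas2* was 15.3, 32.8 and 24.8 in livers 1 to 3 of *Fgf18* f/f mice and 0.121, 0.187 and 0.147 in *Fgf18*ΔHSC livers, so that the order of this pair turned in every liver. *Arntl* exceeded *Npas2* by 14.0, 21.7 and 14.1 times in *Fgf18* f/f livers, whereas their levels were close to equal in *Fgf18*ΔHSC livers, with ratios of 1.04, 1.14 and 0.962. The ratio of *Dbp* to *Per3*, the genes that fell, was 11.0, 10.7 and 7.17 in livers of *Fgf18* f/f mice and 4.91, 6.88 and 5.35 in *Fgf18*ΔHSC livers, a far smaller shift. The mean log2(TPM + 0.1) of *Npas2* and *Arntl* minus that of *Dbp* and *Per3* was -3.40 ± 0.21 in *Fgf18* f/f livers and 1.35 ± 0.40 in *Fgf18*ΔHSC livers (SD, n = 3 each), a difference of 4.76. Without a pseudocount, which makes the measure free of the scaling, the difference was 5.67. These ratios were not tested, since their direction follows from how the genes were grouped.

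**Figure D2:**
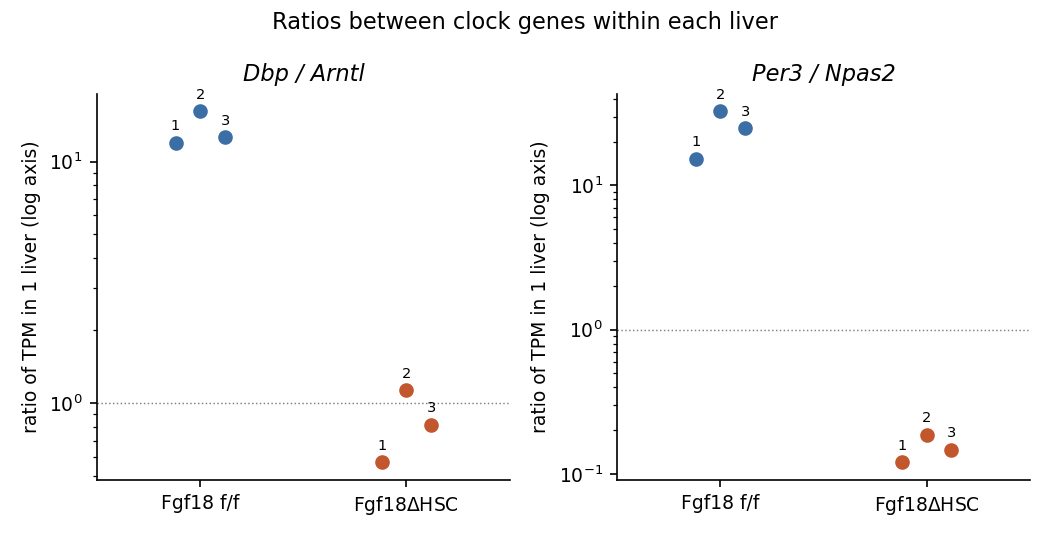
Ratio of *Dbp* to *Arntl* (left) and of *Per3* to *Npas2* (right) in TPM within each liver, on log axes, with liver numbers above the points and a dotted line at equal levels. *Fgf18* f/f livers lie between 11.99 and 16.2 on the left and between 15.3 and 32.8 on the right, and *Fgf18*ΔHSC livers lie near 1 on the left and between 0.121 and 0.187 on the right.

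The other genes of the clock were read from a list of 28 genes grouped by role, of which 13 had values. *Clock*, *Per1*, *Cry1*, *Nr1d1*, *Nr1d2*, *Rora*, *Rorb*, *Nfil3* and 7 genes of clock protein turnover were not analysed here. Of the 13, 3 were called higher and 10 lower, where 41.6% of all listed genes were called higher and 30.0% lower. The median log2 fold change of the 13 was -1.37, where the median of all listed genes was 0.88. Without the 4 members, 1 of 9 was called higher and 8 were called lower, against the same shares of all listed genes, also with a median of -1.37.

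In the activating limb, 3 of 4 genes had values and all 3 were called higher, where 41.6% of all listed genes were called higher. *Arntl2*, the paralog of *Arntl*, was at 0.0985, 0.103 and 0.107 TPM in *Fgf18* f/f livers and at 0.347, 0.587 and 0.568 TPM in *Fgf18*ΔHSC livers, on 11 to 15 and 41 to 64 reads. It rose by 1.54 on the log2 scale (SE 0.23, limma adjusted p = 0.000439), and here *Fgf18*ΔHSC liver 1 was the lowest of its genotype, unlike in *Npas2* and *Arntl*. With a pseudocount of 1 or with rescaled livers, *Npas2* alone of the 3 activators was called.

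In the repressing limb, 6 of 10 genes had values and all 6 were called lower, where 30.0% of all listed genes were called lower. *Per1*, *Cry1*, *Nr1d1* and *Nr1d2* are the repressors that were not analysed here. *Per2*, the *Period* gene most central to the loop, was at 8.27, 7.57 and 7.75 TPM in *Fgf18* f/f livers and at 3.69, 1.59 and 2.11 TPM in *Fgf18*ΔHSC livers. It fell by 1.72 on the log2 scale (SE 0.27, limma adjusted p = 0.000589), close to the fall of 1.83 in *Per3* and with a wider spread among *Fgf18*ΔHSC livers. *Cry2*, a cryptochrome that joins the PER proteins in repression, went from 18.0 ± 1.43 to 5.21 ± 0.470 TPM (SD, n = 3 each), a log2 fold change of -1.77 (SE 0.12, limma adjusted p = 2e-05). Smaller falls were seen in *Ciart*, *Bhlhe40* and *Bhlhe41*, further repressors of BMAL1-driven transcription, with log2 fold changes of -1.25, -1.16 and -1.31.

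Both other listed PAR bZIP genes fell with *Dbp*, where 30.0% of all listed genes were called lower. *Tef* was at 8.69, 8.79 and 8.45 TPM in *Fgf18* f/f livers and at 1.97, 2.24 and 1.99 TPM in *Fgf18*ΔHSC livers, a log2 fold change of -2.02 (SE 0.12, limma adjusted p = 1.61e-05). *Hlf* was at 4.99, 5.49 and 4.54 TPM and at 2.58, 1.46 and 1.72 TPM, a log2 fold change of -1.37 (SE 0.21, limma adjusted p = 0.000554). *Dbp* had the largest fall of this family on the log2 scale, and in *Dbp* and *Tef* the highest *Fgf18*ΔHSC liver was liver 2, which was the lowest for *Hlf*. *Usp2*, a deubiquitinase that acts on clock proteins, was at 5.02, 4.96 and 4.99 TPM in *Fgf18* f/f livers and at 0.891, 0.516 and 0.703 TPM in *Fgf18*ΔHSC livers. Its log2 fold change of -2.69 (SE 0.20, limma adjusted p = 2.26e-05) was the nearest to that of *Dbp* among the listed clock genes.

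**Figure D3:**
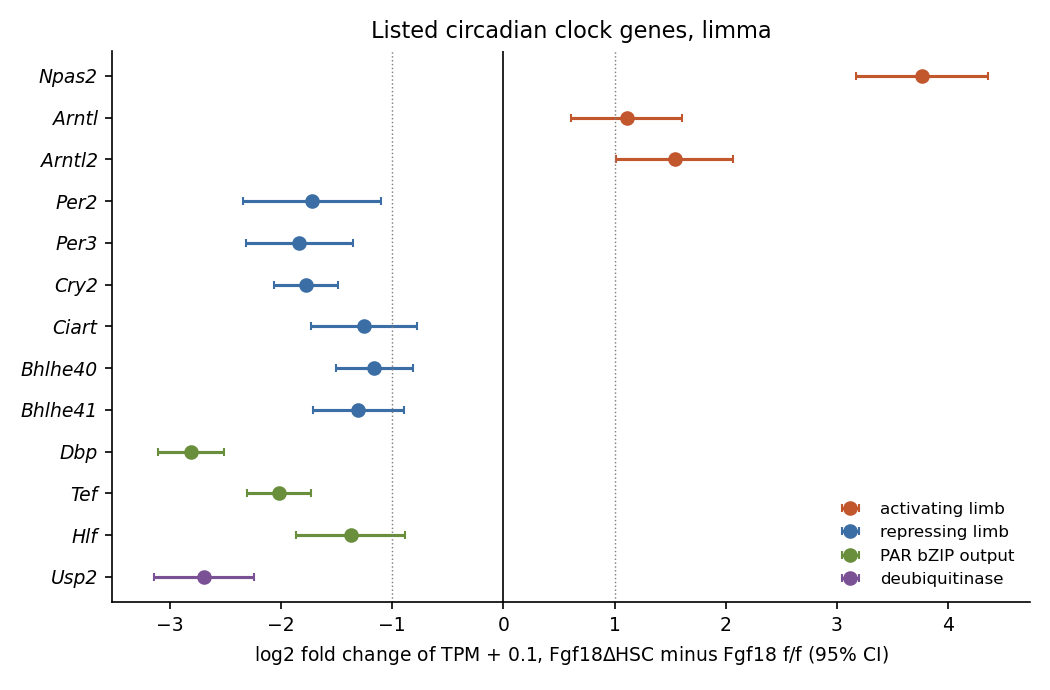
Log2 fold change of TPM + 0.1, *Fgf18*ΔHSC minus *Fgf18* f/f, with its 95% confidence interval from limma, for the 13 listed clock genes coloured by role, and dotted lines at the limit of 1 in either direction. The 3 activators lie to the right of zero and the other 10 genes to the left, *Npas2* at 3.77 and *Dbp* at -2.80 being the extremes.

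E-boxes, spelled CACGTG, are bound by the BMAL1 pairs and were found in the windows of *Ciart* (3 matches), *Bhlhe41* (1) and *Tef* (1 in each of 2 windows) among the 11 listed clock genes with a window, while 7.15% of all windows hold at least 1. *Per1* and *Cry1*, whose levels were not analysed here, also had 1 match each, and no link between the E-box and direction was tested. From *Ciart*, *Bhlhe41* and *Tef*, all of which fell, 1 match each is shown with the E-box in capitals. *Ciart* is at chr3:95882327-95882356 (minus strand), *Bhlhe41* at chr6:145865556-145865585 (minus strand) and *Tef* at chr15:81802534-81802563 (plus strand).
*Ciart*: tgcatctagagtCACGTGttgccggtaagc
*Bhlhe41*: tggtacgttccgCACGTGagctgggtgctg
*Tef*: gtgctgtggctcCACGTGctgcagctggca
No match overlapped another, and none of the windows of *Npas2*, *Arntl*, *Dbp* and *Per3* held this E-box. Sequence outside the windows, such as introns, was not searched.

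Genes known to cycle in the liver under the clock were read from a list of 35, of which 18 had values. Of these, 15 were called lower and 3 higher, with a median log2 fold change of -1.51, where 30.0% and 41.6% of all listed genes were called lower and higher and their median was 0.88. *Alas1*, which encodes the rate-limiting enzyme of heme synthesis and is a target of the PAR bZIP factors, was at 119, 118 and 118 TPM in *Fgf18* f/f livers and at 18.8, 18.9 and 17.7 TPM in *Fgf18*ΔHSC livers (log2 fold change -2.68, SE 0.09, limma adjusted p = 4.73e-06). *Upp2*, a uridine phosphorylase gene, went from 53.9 ± 5.39 to 8.07 ± 1.79 TPM (SD, n = 3 each), a log2 fold change of -2.75. *Elovl3*, a fatty acid elongase gene, was among the 3 that went the other way. It rose by 4.96 on the log2(TPM + 0.1) scale, where *Npas2* rose by 3.77. In mean TPM the order turned, with *Elovl3* 30.3 times higher and *Npas2* 34.8 times higher in *Fgf18*ΔHSC livers.

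**Figure D4:**
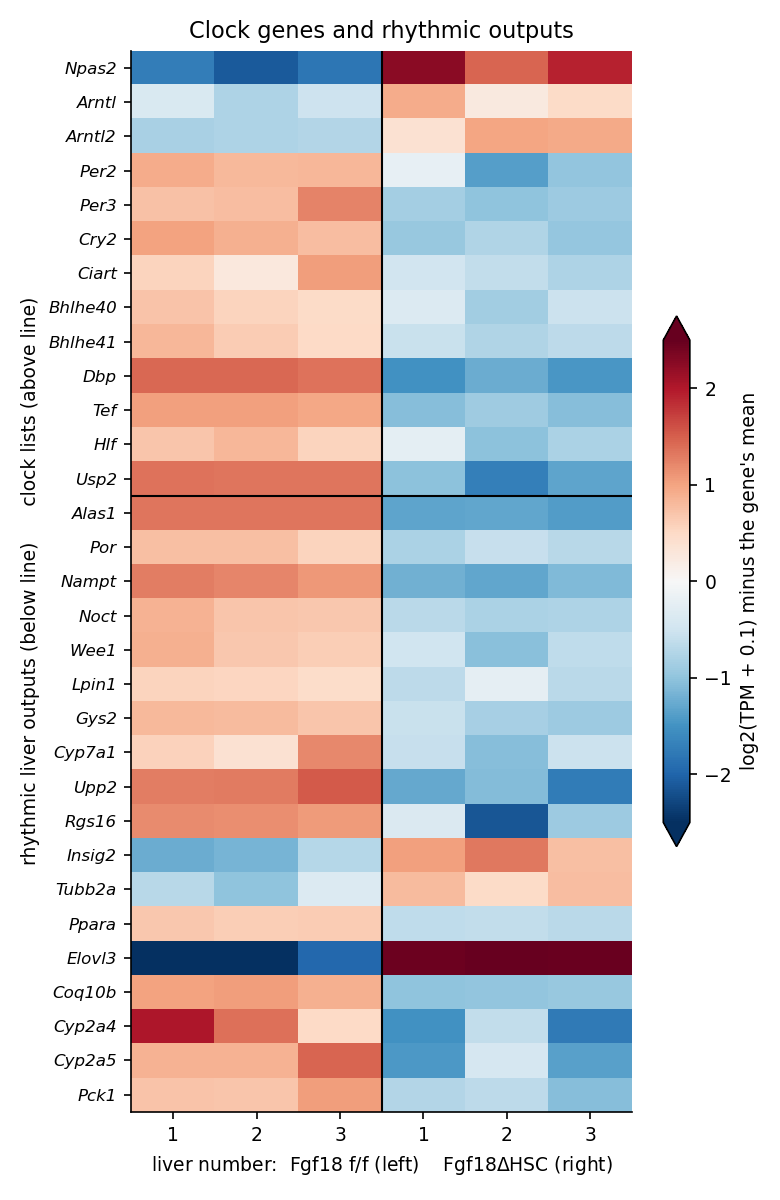
Level of the 13 listed clock genes and the 18 listed rhythmic outputs in each liver, as log2(TPM + 0.1) minus the mean of the gene over the 6 livers, *Fgf18* f/f livers to the left of the vertical line and *Fgf18*ΔHSC livers to the right. *Npas2*, *Arntl*, *Arntl2* and 3 rhythmic outputs, *Elovl3* among them, are red (above the mean) in *Fgf18*ΔHSC livers and the other 25 genes are blue (below the mean), in every liver of each genotype.

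The genes whose profile over the 6 livers was most like that of each member were sought among the 1424 genes whose mean reached 1 TPM, by the root mean square difference of log2(TPM + 0.1) profiles, each centred on its own mean. For *Dbp* the nearest was *Alas1*, at 0.10 log2 units, followed by *Inmt* and *Hamp2* at 0.15 each. *Haus8* was nearest to *Arntl* at 0.12, followed by *Pard6b* at 0.13 and *Tuba4a* at 0.15. *Per3* was most like *Slco1a4* and *Ripk2* at 0.12 each and *Nr1i3* at 0.13. *Npas2* had no neighbour as near, with *Pitx3* and *Gm18734* at 0.31 and *Gm30692* at 0.35, each with 5 reads or fewer in every *Fgf18* f/f liver. *Npas2* and these genes, with means of at most 0.271 TPM in *Fgf18* f/f livers, reached 1 TPM only through *Fgf18*ΔHSC livers. *Arntl* (0.962 TPM in *Fgf18* f/f livers) and *Haus8* (0.647 TPM) passed in the same way. The limit thus partly sets their likeness, and nothing further is read from it. Apart from *Alas1*, a rhythmic output, none of these neighbours is on the clock and output lists.

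Lists of genes that respond to the signals that set the liver clock were read in the same fit, against the same background of 41.6% called higher and 30.0% lower. For glucocorticoids, 2 of 11 genes had values and both fell, *Pck1*, which encodes a gluconeogenic enzyme, and *Cebpd*, a transcription factor gene, with log2 fold changes of -1.64 and -1.21. For temperature, 4 of 12 had values and all 4, heat shock protein genes, rose, *Hspa1b* by 1.95, *Hspa1a* by 1.93 and *Hsph1* by 1.38 among them. For fasting and feeding, 3 of 15 had values and all 3 fell, *Pdk4* and *Cpt1a*, which favour fatty acid burning, by 2.39 and 2.04 and *Pck1* again. Their part in the levels of the clock genes was not tested.

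Cell type markers moved with genotype as well, in a table of which 41.6% of genes were called higher and 30.0% lower. Of the hepatocyte markers, 1 of 10 had values, *Cyp2e1*, and it was lower (1660 to 1955 TPM in the f/f genotype, 461 to 686 TPM in *Fgf18*ΔHSC livers), while *Alb* and the other defining markers were not analysed here, so the tissue label was checked against this gene alone. Of the HSC markers, 6 of 10 had values and 4 were called higher, and their summed level went from 1.80 to 2.22 TPM up to 6.44 to 9.15 TPM. Called higher were also 3 of 3 listed sinusoidal endothelial markers (summed level 11.9 to 14.4 and 26.5 to 38.8 TPM) and 1 of 2 macrophage markers (4.19 to 5.45 and 14.0 to 19.5 TPM). All 4 listed erythroid markers were higher, from 70.9 to 116 TPM up to 396 to 539 TPM. *Ighm*, the single listed lymphocyte marker, was higher too (3.07 to 4.71 and 9.41 to 14.4 TPM), 2 of 4 cholangiocyte markers were called higher and 1 lower (28 to 30.5 and 50.1 to 76.6 TPM), and of 4 neutrophil markers 2 were higher and 2 lower (16.4 to 19.5 and 10.4 to 27.7 TPM). None of the listed markers was at 0 in any liver, and their part in the clock gene differences was not tested. The listed genes summed to 71383 to 79268 TPM in *Fgf18* f/f and to 38890 to 39911 TPM in *Fgf18*ΔHSC livers, and the worth of a single read per kb of gene was 0.0374 to 0.0555 TPM and 0.0482 to 0.0655 TPM, so that depth overlapped between genotypes.

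The sizes of the member differences were set beside each other under every processing choice tried. *Npas2* and *Dbp* passed the threshold under all 13 alternatives, with log2 fold changes from 1.55 to 5.05 and from -3.68 to -2.33. *Dbp* changed more than *Npas2* with a pseudocount of 1 (-2.33 and 1.55) and with rescaled livers (-3.68 and 3.14). *Per3* passed under 11 of 12 and *Arntl* under 10 of 13. The direction of each of the 4 genes was the same throughout, with rescaled livers included.

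**Figure D5:**
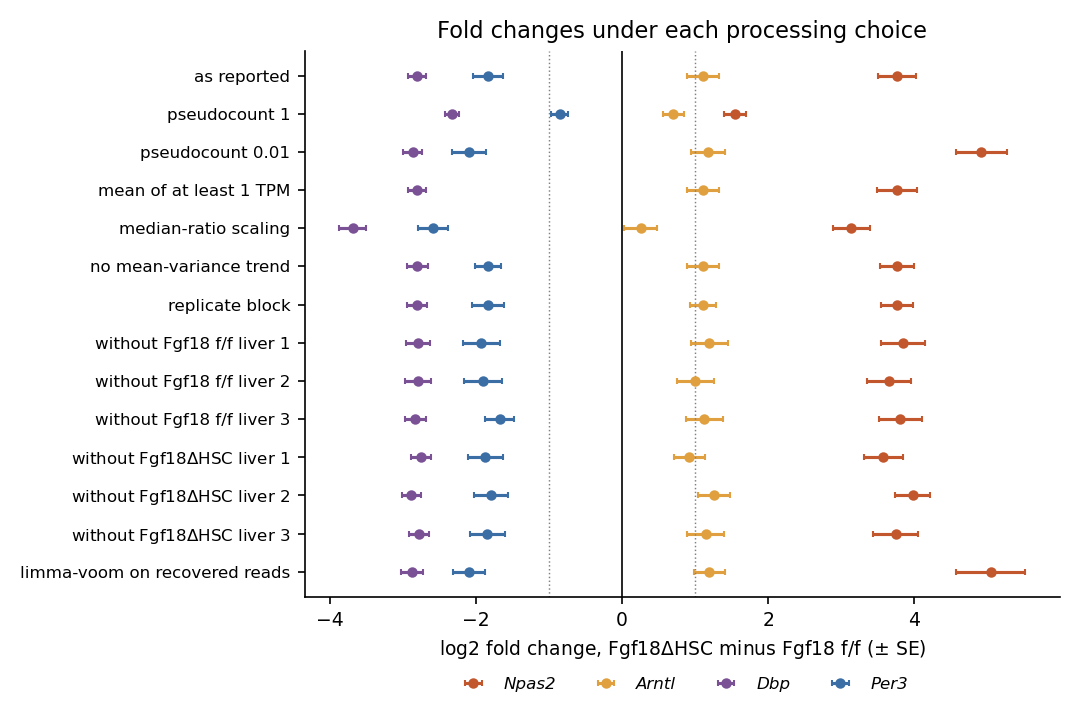
Log2 fold change (*Fgf18*ΔHSC minus *Fgf18* f/f) of the 4 genes with its standard error, as reported and under each alternative processing choice, with dotted lines at the limit of 1 in either direction. *Dbp* and *Npas2* lie outside the dotted lines in every row, *Arntl* lies close to the line at 1 and falls to 0.26 with rescaled livers, and *Per3* lies inside with a pseudocount of 1.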

How the data were processed

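Liver RNA of 6 mice was sequenced by the authors with a stranded mRNA kit. Per the methods and the submitters' processing notes, reads were trimmed with cutadapt 2.5, aligned to GRCm38 (mm10) with HISAT2 2.1.0 and counted per gene with featureCounts 1.6.3, and groups were compared with DESeq2. The deposited table gives, for 3201 genes, a value per liver in a unit that is not named, taken here as TPM. Its remaining columns hold the authors' fold changes, p-values and direction, which were used only to test how the table had been selected: every gene was beyond an absolute log2 fold change of 1 and an unadjusted p of 0.05, and 575 had an adjusted p of 0.05 or more. Multiplied by the joined exon length (GENCODE M21, 3196 genes matched), 92.2 to 93.1% of values below 5000 reads in each liver were whole within 0.02 reads, in all 6 livers for 2940 genes. FPKM would show the same steps. Library totals are unknown, so no interval for counting error was computed.

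Genotypes were compared by limma (version 3.58.1, R 4.3.3, lmFit and eBayes with trend) on log2(TPM + 0.1) with genotype alone, and the exact tests and tables used Python 3.11.15. Promoter windows came from RefSeq. The 4 genes and the gene lists were chosen with earlier results of these data known. 1 gene was taken out of the clock list and is not reported here. The text names the 4 genes, the other listed clock genes, up to 3 of each other list by size of change, and the 3 genes most like each member. Of the marker lists, single genes are named only where they stand for a list. Alternatives were other pseudocounts, a minimum mean of 1 TPM, median-ratio scaling, no trend, a replicate block, each liver left out, limma-voom on recovered reads and, added after the data were seen, a ratio without a pseudocount.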

Additional observations from a re-analysis of the deposited data

How the results depend on the processing

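The direction of all 4 genes was the same under every alternative run. *Arntl* lost its call with a pseudocount of 1 (log2 fold change 0.70), with median-ratio scaling (0.26) and without *Fgf18*ΔHSC liver 1, and *Per3* with a pseudocount of 1 (-0.85). *Per3* has no value in the fit limited to means of 1 TPM or more, where 522 genes were called higher. With a pseudocount of 1, 266 listed genes were called higher and 566 lower, with 1 clock gene higher. With median-ratio scaling, 312 listed genes were called higher and 1112 lower, again with 1 clock gene higher, and limma-voom called 1890 higher and 958 lower. Higher genes made up 58.1% of calls as reported, 32.0% with a pseudocount of 1, 65.6% with 0.01, 39.9% with the minimum mean, 21.9% with median-ratio scaling and 66.4% in limma-voom. The scaling was computed over genes that the authors had selected for a difference, so it assumes a balance that the table does not have to have. The within-liver difference of 4.76 was 2.72 with a pseudocount of 1, 5.53 with 0.01, 5.60 on recovered reads and 5.67 with none. Leaving out each liver in turn gave 3.58 to 3.98 for *Npas2*, 0.92 to 1.26 for *Arntl*, -2.88 to -2.75 for *Dbp*, -1.92 to -1.67 for *Per3*, 1204 to 1377 genes higher, 907 to 975 lower, 2 to 3 clock genes higher, 10 lower, and 4.56 to 4.96 for the within-liver difference.

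The replicate numbers were not shown to pair livers: deviations of same-numbered livers correlated at 0.0574, 0.00597 and 0.0307 across genes. With the replicate number as a block, 1337 genes were higher and 963 lower, and limma adjusted p-values were 0.000199 for *Npas2* (log2 fold change 3.77), 0.00181 for *Arntl*, 0.000167 for *Dbp* and 0.000687 for *Per3*, so that no call of the 4 genes changed. Precision is limited most for *Npas2*, which had 4 to 10 reads in each *Fgf18* f/f liver.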
